A study of Homo sapiens with 25 samples.

Results

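The H3K27ac landscape of NCI-H441, a human lung adenocarcinoma cell line, was compared with that of 3 other lung adenocarcinoma lines, NCI-H2087, NCI-H358 and HCC364. Members were chosen from the H3K27ac peak lists by presence or absence of a peak. Of 19970 protein-coding genes, 147 carried a peak within 1 kb of an annotated end only in NCI-H441 (0.736%). Another 274 carried one in the other 3 lines but not in NCI-H441 (1.37%). Either end of a gene counts, so a member need not have a peak at its start. Of 111 genes of the first group with an annotated start, 81 had an NCI-H441 peak within 1 kb of it. In the second group, 177 of 210 had a peak there in all 3 other lines. Peaks of the 4 lists were merged wherever they overlapped by 1 bp, which gave 84925 regions, 70341 of them distal, meaning over 1 kb from every gene end. Of the distal regions, 5378 were acetylated only in NCI-H441 and are called gained (7.65%). A further 1372 were acetylated in all lines but NCI-H441 and are called lost (1.95%). These shares follow from the rule that chose the members, so they describe the lists and are no test.

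The series measured the genomic binding of NKX2-1, the homeobox lineage factor of lung and thyroid, together with histone marks in lines that carry different doses of it. It holds 25 samples, of which 20 have a peak list and 5 are input libraries not analysed here. NCI-H441, NCI-H358 and HCC364 were profiled with antibodies against NKX2-1, H3K27ac and H3K4me1, and NCI-H2087 with 11 antibodies. All were established lines grown untreated in RPMI medium with fetal bovine serum, and each line and antibody is 1 library. No difference between lines therefore has a replicate check, and what belongs to a line cannot be told apart from what belongs to its library.

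H3K27ac is acetylation of lysine 27 on histone H3, deposited by the acetyltransferases EP300 and CREBBP on nucleosomes beside active promoters and enhancers. H3K4me1 marks enhancers whether or not they are active, and a region with H3K4me1 but no H3K27ac is commonly called primed. NCI-H441 is a line widely used as a model of distal lung epithelium because it makes surfactant proteins.

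The NCI-H441 H3K27ac list used here held 47228 peaks over 70.0 Mb. HCC364 had the longest list, 56384 peaks over 94.9 Mb, while NCI-H2087 had 51482 and NCI-H358 47136. Peak lists carry no read totals, so depth is given by the lowest local background of each list, which was 2.54 to 2.78 reads across the 4 H3K27ac lists. The cell type label was checked against its markers. An end of NKX2-1 and of all 14 listed epithelial keratin and junction genes was acetylated in NCI-H441, where 56.2% of all genes were. Of 11 listed alveolar type 2 genes 6 were acetylated (54.5%), among them NAPSA, an aspartic protease gene acetylated in all 4 lines, while ABCA3, LAMP3, PGC, HHIP and CEBPA had no peak at an end. None of 8 neuroendocrine genes was acetylated. Of 10 haematopoietic genes 3 were (CD3E, CD79A and IL7R), and of 8 endothelial genes 1 was (KDR). Of 10 mesenchymal genes 5 were acetylated, and of 10 basal and squamous genes 4 were.

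The upstream sequences of 6 member genes are shown because the promoters of the groups differed in CpG content. They are the 250 bases before the annotated start, 5′ to 3′ on the gene's strand, from RefSeq on GRCh38.p14, with every CpG dinucleotide in capitals. Of the genes acetylated only in NCI-H441, QPRT makes nicotinate mononucleotide from quinolinate in NAD synthesis, TFPI2 encodes a Kunitz-type protease inhibitor, and SFTA2 encodes a small secreted protein of lung epithelium.
QPRT (chr16:29678930-29679179, plus strand): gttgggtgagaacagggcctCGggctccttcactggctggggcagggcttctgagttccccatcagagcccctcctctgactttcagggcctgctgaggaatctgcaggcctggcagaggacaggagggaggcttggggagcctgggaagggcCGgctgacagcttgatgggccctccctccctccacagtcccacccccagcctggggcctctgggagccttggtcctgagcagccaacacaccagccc
TFPI2 (chr7:93890754-93891003, minus strand): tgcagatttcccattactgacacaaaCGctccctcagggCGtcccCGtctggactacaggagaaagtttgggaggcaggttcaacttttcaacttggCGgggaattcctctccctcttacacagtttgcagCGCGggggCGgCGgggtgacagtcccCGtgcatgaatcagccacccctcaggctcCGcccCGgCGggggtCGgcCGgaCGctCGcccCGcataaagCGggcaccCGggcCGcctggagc
SFTA2 (chr6:30932171-30932420, minus strand): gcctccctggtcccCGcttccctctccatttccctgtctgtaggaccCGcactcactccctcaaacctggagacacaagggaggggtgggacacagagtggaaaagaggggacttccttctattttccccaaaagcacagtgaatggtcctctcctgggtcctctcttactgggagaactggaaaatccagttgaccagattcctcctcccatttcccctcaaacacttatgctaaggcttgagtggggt
Of the genes acetylated in every line but NCI-H441, SCAF11 encodes a splicing-associated protein, STC2 a secreted glycoprotein of the stanniocalcin family, and CD44 the hyaluronan receptor.
SCAF11 (chr12:45990575-45990824, minus strand): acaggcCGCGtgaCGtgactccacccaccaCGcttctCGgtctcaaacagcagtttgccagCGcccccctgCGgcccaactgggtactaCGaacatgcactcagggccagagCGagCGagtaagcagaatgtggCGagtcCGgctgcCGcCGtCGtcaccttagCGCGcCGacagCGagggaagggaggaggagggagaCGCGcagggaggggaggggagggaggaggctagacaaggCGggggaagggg
STC2 (chr5:173328415-173328664, minus strand): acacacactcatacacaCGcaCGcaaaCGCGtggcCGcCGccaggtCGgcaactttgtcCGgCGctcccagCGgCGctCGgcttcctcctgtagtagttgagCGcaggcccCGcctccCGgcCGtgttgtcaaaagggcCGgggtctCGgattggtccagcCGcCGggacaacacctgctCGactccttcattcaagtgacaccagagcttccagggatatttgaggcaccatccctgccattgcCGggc
CD44 (chr11:35138921-35139170, plus strand): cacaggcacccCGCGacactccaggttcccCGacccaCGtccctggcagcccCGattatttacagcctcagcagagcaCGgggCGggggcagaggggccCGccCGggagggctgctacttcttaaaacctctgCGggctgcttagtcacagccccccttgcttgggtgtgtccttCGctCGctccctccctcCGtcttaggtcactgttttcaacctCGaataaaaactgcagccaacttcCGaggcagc

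Within these 250 bases QPRT held 2 CpG and SFTA2 held 2, whereas TFPI2 held 20, SCAF11 22, STC2 22 and CD44 15. A promoter window of 250 bases before to 50 after the start was called CpG-rich when its observed over expected CpG ratio was at least 0.6. Such windows were available for 111 of the 147 genes and 210 of the 274. Of the genes acetylated only in NCI-H441, 49 of 111 windows were CpG-rich (44.1%, exact 95% binomial interval 34.7% to 53.9%). Of those acetylated in all other lines, 163 of 210 were (77.6%, 71.4% to 83.1%). All genes with a window gave 65.8%, genes acetylated in all 4 lines 87.1% and genes acetylated in none 34.1%. The corresponding shares for genes acetylated only in one of the other lines were 56.7% (NCI-H2087), 47.9% (NCI-H358) and 51.7% (HCC364). For genes missing in just that line the shares were 67.3%, 66.3% and 57.6%. Every line thus had a lower share among its private genes than among the genes it alone lacked, and the gap was widest in NCI-H441. These intervals cover counting over genes only, and neighbouring genes are not independent.

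Short motifs were searched on both strands of the same windows. The NKX2-1 core CAAGTG lay in 11.7% of the windows of genes acetylated only in NCI-H441, in 8.10% of those of genes acetylated in the other 3 lines, and in 10.0% of all windows. The AP-1 motif TGANTCA lay in 4.50%, 5.24% and 5.76%, the forkhead motif TGTTTAC in 2.70%, 0.952% and 2.62%, and TATAAA in 9.91%, 9.52% and 9.64%. The GC box GGGCGG, which itself contains a CpG, lay in 44.1%, 71.9% and 58.5%. No motif contains another. Among the 6 genes printed, TFPI2 holds TGANTCA from base 164 and STC2 holds CAAGTG from base 194, counted from the 5′ end.

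NCI-H441 had the fewest private genes and private distal regions of the 4 lines. Genes acetylated in a single line numbered 147 in NCI-H441, 279 in NCI-H358, 283 in NCI-H2087 and 549 in HCC364. Genes acetylated in all but that line numbered 274, 335, 192 and 333 in the same order. Private distal regions numbered 5378 in NCI-H441, 8356 in NCI-H358, 7551 in NCI-H2087 and 17315 in HCC364, where the list is the longest. With the 40000 peaks of highest −log10 q from each list, NCI-H441 still had the fewest private distal regions, 4480 against 4843 to 8670, and the fewest private genes, 174 against 272 to 505. Distal regions missing only in NCI-H441 (1372) were close in number to those missing only in NCI-H2087 (1341), below NCI-H358 (2647) and HCC364 (3375). With lists of equal length the order of the closest pair turned, 982 for NCI-H441 and 1175 for NCI-H2087.

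**Figure D1:**
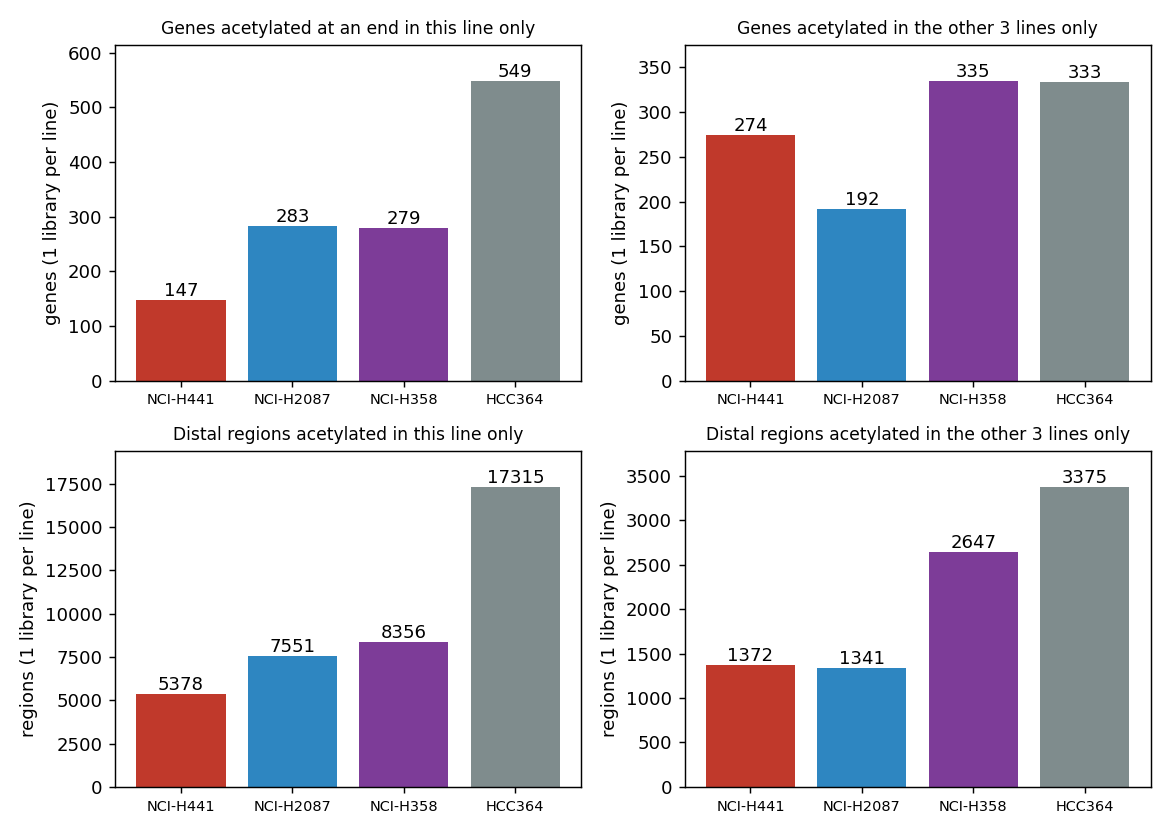
Bars count genes (upper panels) and distal regions (lower panels) acetylated in the named line only (left) or in the other 3 lines only (right), with 1 library per line and no error. NCI-H441 has the lowest bars on the left, 147 genes and 5378 regions, and 1372 regions at the lower right beside 1341 for NCI-H2087.

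Sharing was highest with NCI-H2087. Of the 41222 merged regions with an NCI-H441 peak, 72.8% also held a peak of NCI-H2087, 67.0% one of NCI-H358 and 65.4% one of HCC364. Taken the other way, NCI-H441 covered 67.8%, 65.5% and 52.1% of the regions of those lines. Near gene ends the shares of NCI-H441 regions were 91.8%, 89.2% and 90.1%, and at distal regions 65.6%, 58.7% and 56.2%.

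The genes acetylated only in NCI-H441 carried peaks of modest height. Peak height is given as the authors' fold of the summit over its local background, which can be ranked within a list but not compared between lists. The 147 genes rested on 139 peaks, since neighbouring genes can share one. Their fold ran from 3.07 to 55.1 with a median of 6.46, and 47 lay above the median of the NCI-H441 list. Genes acetylated in all 4 lines had a median fold of 22.4 in that list. For 80 of the 147 the other lines had no H3K27ac peak within 5 kb of an end, and for 67 at least 1 of them had one just outside the window. At the edge of that window, HBA1 was a member with its NCI-H441 peak 983 bp from an end, and LOC124909484 was not, with one at 1025 bp. AHCY shows how close the peaks of other lines can lie. It encodes the enzyme that clears S-adenosylhomocysteine and had the highest fold (55.1), yet peaks of the other lines lay 1233, 1085 and 1082 bp from its ends in NCI-H2087, NCI-H358 and HCC364.

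By the rule for named genes, the 15 highest folds were examined, and 6 of them had no other peak within 5 kb. QPRT on chr16 had a fold of 41.7, and the nearest peaks of NCI-H2087, NCI-H358 and HCC364 lay 65322, 64689 and 65410 bp away. CIST1 on chr19 had a fold of 27.5 and no other peak within 18068 bp, from a peak it shares with the overlapping PDE4C, a cAMP phosphodiesterase, which has peaks of the other lines 2114 to 2392 bp from an end. NTNG1, which encodes the membrane-anchored guidance protein netrin G1, had a fold of 26.5 with no other peak within 22845 bp. TMEM171 and its neighbour LOC124901001 shared a peak of fold 21.7, the nearest other peaks being 26409 and 18979 bp away. TFPI2 had a fold of 21.0 and no other peak within 30789 bp. These 6 genes all had an NKX2-1 peak at an end in NCI-H441. QPRT and CIST1 had none in the other lines, NTNG1 and TFPI2 had one in HCC364 as well, and TMEM171 and LOC124901001 one in NCI-H2087.

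Besides AHCY, 8 genes of the highest 15 had another line's peak within 5 kb in at least 1 line. Their folds were 36.1 for PIANP, 30.7 for PSD3, 27.7 for C1orf226, 27.5 for PDE4C, 26.5 for BAIAP3, 23.9 for KLRG2, 23.3 for NLRP2 and 22.5 for MYL10. The nearest such peak lay between 1067 bp (BAIAP3, NCI-H358) and 2114 bp (PDE4C, HCC364), so all of them sit close to the edge of the 1 kb window. PIANP and KLRG2 had no NCI-H441 peak within 1 kb of the annotated start, only at the other end.

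By length of gene body acetylated in NCI-H441, the 10 leading genes were PSD3 with 33760 bp, KCNQ3 with 25638 bp, TNIP1, which encodes an inhibitor of NF-kappaB signalling, with 22946 bp, GBF1, BCL11A, PCDHAC2, TGM5, B4GALNT3, LAMA4 and ZNF600, the last with 5729 bp. The length counts every NCI-H441 peak over the body, also where other lines are acetylated. Of 13 distal regions that fall to PSD3, NCI-H441 held 5, against 6 (NCI-H2087), 8 (NCI-H358) and 10 (HCC364). Of 10 that fall to TNIP1 it held 9, against 6, 5 and 8. BCL11A, a zinc finger transcription factor gene, stands alone in its surroundings. It had 8000 bp acetylated in NCI-H441, and the nearest peak of any other line lay at least 202127 bp from its ends. All 3 distal regions that fall to BCL11A were gained.

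Among the gene lists, 8 members were acetylated only in NCI-H441. SFTA2 had a fold of 10.5 and the nearest peaks of the other lines lay 15444 to 16354 bp away. KRT6A and KRT17, keratins of stressed and basal epithelia, had folds of 10.3 and 7.14, with peaks of HCC364 at 1819 bp from KRT6A and of all other lines at 5864 to 5979 bp from KRT17. IL17C, an epithelial cytokine, had a fold of 9.31. CDX2, the homeobox factor of intestinal epithelium, had 6.09, and TGM5, an epidermal transglutaminase, 5.56. WNT10A, a WNT ligand, had 5.29, and PLXND1, a semaphorin receptor, 3.97, the lowest of these. The CDX2 and WNT10A peaks lie at the end away from the start, and NCI-H441 had none within 1 kb of either start. KRT6A, KRT17 and IL17C have no annotated start in the source used, so whether their peaks lie at a start was not checked. PLXND1 alone of the 8 lacked an NKX2-1 peak at an end in NCI-H441. The number acetylated only in NCI-H441 was 2 of 10 for basal and squamous genes and 1 of 6 for the surfactant list, where SFTA3 was not matched. The other lists with such a gene had 1 of 12 (gastric, intestinal and hepatic), 1 of 15 (epidermal barrier), 1 of 16 (cytokines), 1 of 18 (guidance) and 1 of 19 (WNT). Over all genes the share was 0.736%, and the remaining lists, alveolar type 2 among them, had no such gene. In the basal and squamous list KRT5, KRT14, DSG3 and PKP1 had no peak at an end in any line, and NGFR lacked one only in NCI-H441. Lists this short are read as values only.

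**Figure D2:**
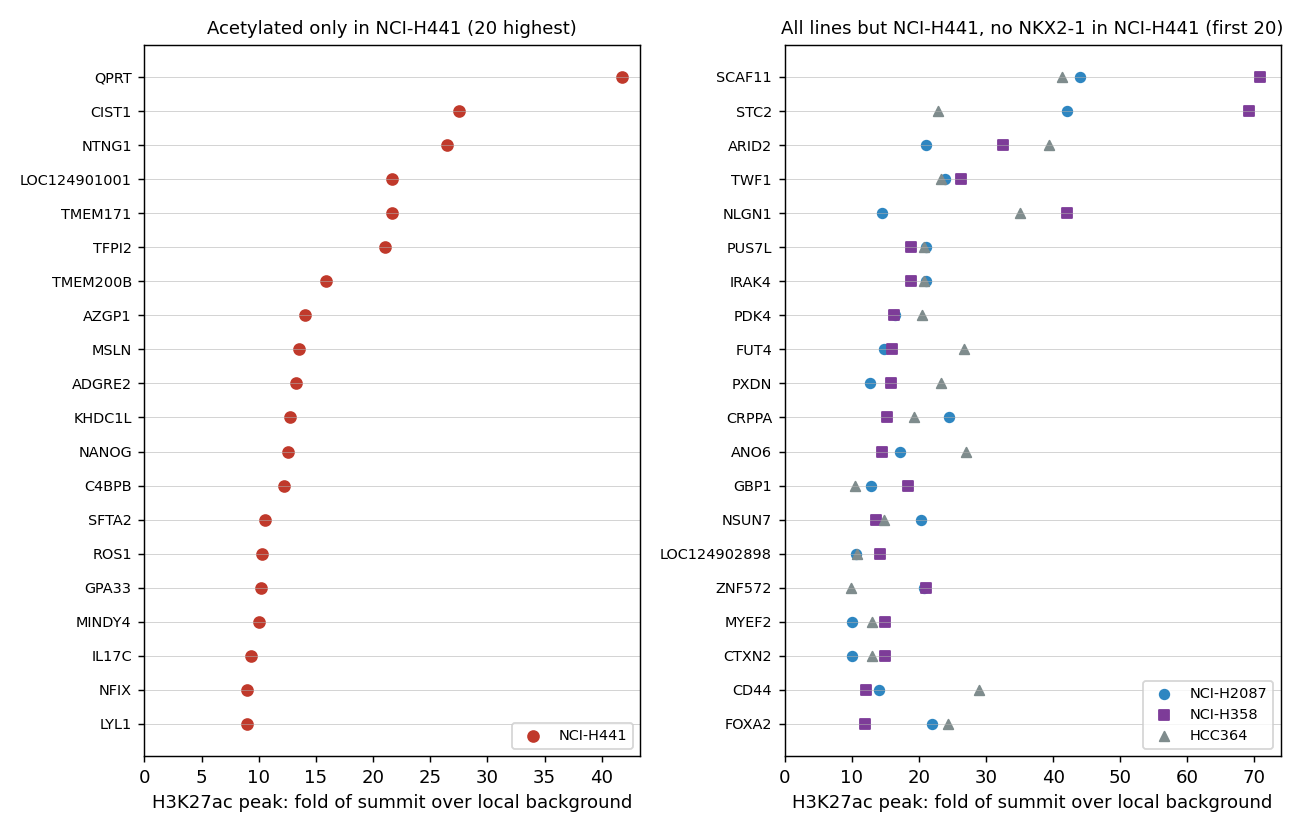
Points give the fold of the H3K27ac summit over local background for genes with no peak of the opposite side within 5 kb, the 20 highest by NCI-H441 fold (left) and, among those with no NKX2-1 peak at an end in NCI-H441, the first 20 by lowest percentile in the other lines (right). A line without a point has no peak, and 51 of the 190 genes open to the right panel (26.8%) held an NKX2-1 peak in NCI-H441 and are not drawn. QPRT leads on the left with 41.7, and SCAF11 leads on the right.

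The surfactant genes showed where NCI-H441 stood. SFTPA1 and SFTPA2 were acetylated in NCI-H441 (fold 12.1 and 11.4) and NCI-H2087 (6.08 and 11.7) and in no other line. Both lie in a 0.200 Mb stretch, chr10:79450400-79650568, where NCI-H358 had no peak of H3K27ac, NKX2-1 or H3K4me1, so absent DNA and DNA without these marks cannot be told apart there in that line. SFTPB, which is needed for surfactant film formation, was acetylated in NCI-H441, NCI-H2087 and HCC364. SFTPC had a peak within 1 kb of an end in all 4 lines and SFTPD in NCI-H358 only. Which end carried the peak was not examined for these surfactant genes, and such a peak can belong to a neighbouring gene. These genes are near-copies in the case of SFTPA1 and SFTPA2, so reads may have been assigned between them with error. The cystic fibrosis channel gene CFTR was acetylated in NCI-H441 (11.4) and NCI-H2087 (4.80).

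The genes acetylated in all lines but NCI-H441 split in the same manner. For 190 of the 274 NCI-H441 had no H3K27ac peak within 5 kb, and for 84 it had one between 1 and 5 kb. All 3 other lines had a −log10 q of at least 10 at 169 genes. The median fold was 7.81 (NCI-H2087), 8.32 (NCI-H358) and 9.13 (HCC364), each below the medians of genes acetylated in all 4 lines (16.9, 23.8 and 19.5).

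SCAF11 headed this group, ranked by the lowest of its 3 percentiles. Its fold was 44.0 (NCI-H2087), 70.9 (NCI-H358) and 41.4 (HCC364), while the nearest NCI-H441 peak lay 216956 bp away. STC2 had folds of 42.0, 69.2 and 22.8 in the same order, with the nearest NCI-H441 peak at 10024 bp. ARID2, a subunit of the PBAF chromatin remodelling complex, had 21.1, 32.5 and 39.4. TWF1, an actin monomer-binding protein gene, had 23.9, 26.2 and 23.3. IRAK4, the kinase downstream of interleukin-1 and Toll-like receptors, shares its peak with the adjacent PUS7L, and that peak had 21.0, 18.8 and 20.7. NLGN1, a synaptic adhesion gene, had 14.5, 42.1 and 35.1. PDK4, a kinase that inhibits pyruvate dehydrogenase, had 16.4, 16.3 and 20.4, and FUT4, a fucosyltransferase gene, 14.8, 16.0 and 26.7. Each of these genes had no NCI-H441 H3K27ac peak within 5 kb. Of them, SCAF11, ARID2, TWF1, IRAK4 and PUS7L lie in 1 chr12 stretch of 2.50 Mb with no NCI-H441 peak of any antibody, described below. Another 5 of the first 15 had an H3K27ac peak just outside the window, at 1014 bp for KPTN, 1042 bp for MAP3K20, 1269 bp for SBK3, 1443 bp for GFAP and 1759 bp for VSIG10.

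Ranked by length of gene body acetylated in the other lines, the leading genes were PPM1H (mean 36799 bp), ARHGAP26, ROR1, LMNA, PLB1, AGAP1, CRIM1, TBCD, CD44 and FMNL2. The ranking does not count what NCI-H441 holds away from the ends. Of 15 distal regions that fall to PLB1, 10 held an NCI-H441 peak, and of 3 that fall to FMNL2, 0 did. CD44 had 14231 bp acetylated in NCI-H2087, 4866 bp in NCI-H358 and 48907 bp in HCC364, and no NCI-H441 peak within 17733 bp of its ends. LMNA, which encodes the nuclear lamins A and C, had 24677, 30013 and 35962 bp, and the nearest NCI-H441 peak to an end lay at 8924 bp. ROR1 and PPM1H had NCI-H441 peaks at 1595 and 2506 bp.

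Of the listed genes, 7 belonged to this group. They were 2 of 18 lung and foregut transcription factors, 1 of 10 basal and squamous genes and 1 of 19 WNT genes. The TGF-beta and interferon lists had 1 of 14 each, and the list of receptor kinases and MAPK output 1 of 16. The other lists had none, and 1.37% of all genes belong to the group. FOXA2, a forkhead pioneer factor of foregut epithelium, had folds of 22.01 (NCI-H2087), 12.0 (NCI-H358) and 24.4 (HCC364). The nearest NCI-H441 peak was 130507 bp away, and neither NKX2-1 nor H3K4me1 had a peak at its ends in NCI-H441, although H3K4me1 did in each of the other lines. Its paralogue FOXA1 was acetylated in all 4 lines, with a fold of 78.4 in NCI-H441. FOXP2, another forkhead gene, had 14.9, 11.0 and 6.47, and GBP1, an interferon-induced GTPase gene, 12.8, 18.4 and 10.5. SMAD6, an inhibitor of BMP signalling, had 6.69, 11.4 and 20.9, and WNT3A 5.93, 7.90 and 8.57. NGFR, which encodes the p75 neurotrophin receptor, and DUSP4, a MAP kinase phosphatase gene, had NCI-H441 peaks 4914 and 1937 bp away. Other outputs of MAP kinase signalling were acetylated in all 4 lines, among them DUSP6, SPRY2, SPRY4, ETV4, ETV5 and PHLDA1.

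Several of these genes lie together. Runs of at least 3 neighbouring genes were MEX3A, LMNA and SEMA4A on chr1, SHISA5, PFKFB4, UCN2 and COL7A1 on chr3, PUS7L, IRAK4 and TWF1 on chr12, ANO6, ARID2 and SCAF11 on chr12, FBXO17, FBXO27 and ACP7 on chr19, and SYT3, C19orf81 and SHANK1 on chr19. The 1 run among genes acetylated only in NCI-H441, ELOVL3, PITX3 and GBF1 on chr10, rests on a shared peak of fold 5.29. Both chr12 runs fall in 1 stretch, chr12:43686270-46187098, of 2.50 Mb. There NCI-H441 had no peak of H3K27ac, NKX2-1 or H3K4me1, whereas NCI-H2087 had 151 peaks of these antibodies, NCI-H358 164 and HCC364 176. In the 1 Mb after the stretch NCI-H441 had 37 H3K27ac peaks, against 47, 36 and 37 in the other lines. In the 1 Mb before it, NCI-H441 had 4, against 5, 7 and 7. Chromosome 12 held 27 of the 274 genes, which is 2.64% of its 1024 genes, against 1.37% of all genes. Of these 27, 6 touch the 2.50 Mb stretch and 2 touch a shorter chr12 stretch at BCAT1, given below. Chromosome 15 came next, with 15 genes or 2.43%.

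**Figure D3:**
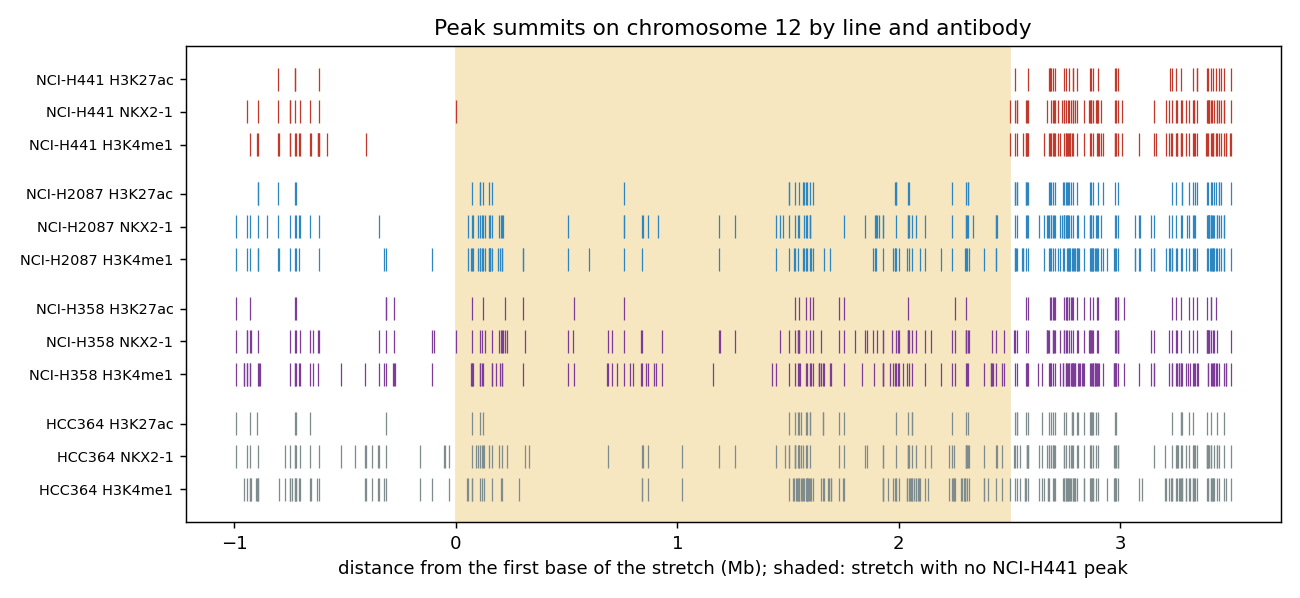
Each tick is a peak summit, placed by its distance in Mb from the first base of the chr12 stretch, with 1 row per line and antibody. The shaded 2.50 Mb hold no NCI-H441 summit, while the other lines have 151, 164 and 176 peaks there.

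Stretches with no peak of any of the 3 antibodies in 1 line and at least 15 peaks in each other line were counted for all lines. NCI-H441 had 7, HCC364 16, NCI-H2087 71 and NCI-H358 122. The other 6 of NCI-H441 lay on chr2 (1.59 Mb, with PXDN and MYT1L), chr10 (2.12 Mb, with LRRTM3), chr12 (0.251 Mb at the end of BCAT1, and 0.440 Mb), chr14 (2.63 Mb, with MDGA2) and chr16 (0.280 Mb, with MMP2, LPCAT2, CAPNS2 and SLC6A2). In total 10 of the 274 genes touch these 7 stretches. Absent DNA and DNA without these marks cannot be told apart from peak lists, so in these stretches the lack of a peak is a measurement and no more.

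The distal regions gained in NCI-H441 were narrow and low. Their median width was 469 bp, against 903 bp for all distal regions and 2989 bp for those acetylated in 4 lines. The median fold percentile within the NCI-H441 list was 21.2, with 592 of 5378 above the list median and 4 above its 90th percentile. Lost regions were wider, with a median of 1678 bp. A lost region joins peaks of 3 lines and one acetylated in 4 lines joins peaks of 4, while a gained region holds NCI-H441 peaks alone. The part of this joining in the widths was not tested. In all, 60.6% of the gained and 66.2% of the lost regions lay within 50 kb of a gene end, against 64.5% of all distal regions.

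The 8 gained regions of highest fold lay nearest to BZW1, BCL11A, TCF7L2, MAP4K4, GAS7, STARD13, KCTD7 and SFXN1. That near BZW1, chr2:200747143-200750160, had a fold of 35.9, and although acetylated only in NCI-H441 it held NKX2-1 and H3K4me1 peaks in all 4 lines. The region inside BCL11A, chr2:60515116-60517477, had a fold of 33.6. It held NKX2-1 in NCI-H441 only, and H3K4me1 in NCI-H441 and HCC364. Inside TCF7L2, a transcription factor gene of the WNT pathway, lay chr10:113055472-113057565, with a fold of 32.7. All 8 held both NKX2-1 and H3K4me1 peaks in NCI-H441, and their folds went down to 26.6 near SFXN1.

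Some genes had many gained regions. STEAP4, a metalloreductase gene, had 10 gained among its 14 nearest distal regions, FUT8, the core fucosyltransferase gene, 9 of 16, and NPEPPS and PLS3 8 each. TMEM156 had 8 of 12. IRX2, an Iroquois homeobox gene expressed in lung, had 7 regions and all 7 were gained. SCNN1B, a subunit gene of the epithelial sodium channel that clears fluid from the airspace, had 6 of 13, although its own ends were acetylated in no line. WSB1, ELF1 and HOXB1 had 6 each. IRX2, SCNN1B and HOXB1 lie in stretches of 3.04, 0.227 and 0.160 Mb where NCI-H358 had no peak of H3K27ac, NKX2-1 or H3K4me1. There, absent DNA and DNA without these marks cannot be told apart in that line. TFPI2, itself acetylated only in NCI-H441, had 3 regions and all were gained. NPEPPS, in contrast, is one of the genes acetylated at an end in all lines but NCI-H441, as is MPP7, which had 4 gained regions. Of the 147 genes acetylated only in NCI-H441, 38 had a gained region nearest to them (25.9%), against 12.0% of all genes. Genes and regions were chosen by the same rule from the same H3K27ac lists, so this share is a description and no test.

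No gene had more than 5 lost regions. IGF1R, the insulin-like growth factor 1 receptor gene, had 5 lost among its 9, and NCI-H441 had none of the 9 although its gene end was acetylated in all 4 lines. TRAK1 had 4, and SAE1, PXDN, RXRA, EML4, PHACTR4, HMGB1, SH3KBP1 and TPM1 had 3 each. AHNAK, NR4A1, SPAG6 and TMEM268 also had 3, tied with the last of these. The strongest of the PXDN regions, chr2:1624203-1627551, lies inside the chr2 stretch without NCI-H441 peaks. The 8 lost regions whose lowest percentile in the other lines was highest lay nearest to MAP2, RPS6KA5, ANO6, OSBPL6, RUNX1, IRF2BP2, CREB5 and RGS12. That of ANO6, chr12:45230727-45236897, lies inside the 2.50 Mb chr12 stretch without NCI-H441 peaks. The region near MAP2, chr2:209366776-209370503, had folds of 36.1 (NCI-H2087), 27.6 (NCI-H358) and 18.3 (HCC364). It held NKX2-1 and H3K4me1 in those 3 lines and neither in NCI-H441. That near IRF2BP2, chr1:234543329-234546104, had 15.8, 18.7 and 14.5 and held both in all 4 lines. Of the 274 genes acetylated in all lines but NCI-H441, 39 had a lost region nearest to them (14.2%), against 4.05% of all genes. Here too genes and regions come from the same H3K27ac lists, so the share is no test.

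NKX2-1 and H3K4me1 were not used to choose the regions. NKX2-1 peaks of NCI-H441 lay at 3959 of the 5378 gained regions (73.6%, exact 95% interval 72.4% to 74.8%). The NKX2-1 lists of NCI-H2087, NCI-H358 and HCC364 reached 28.4%, 22.1% and 24.6% of them. For H3K4me1 the shares were 84.9% in NCI-H441 and 35.1%, 37.7% and 38.5% in the others. Distal regions acetylated in 4 lines held NKX2-1 at 92.8% and H3K4me1 at 96.8% in NCI-H441, so the gained regions lay below them on both. The shares over all distal regions were not computed, for gained or for lost regions to be set beside. Gained regions are also narrower (median 469 against 2989 bp), and the part of width in this difference was not tested. Taken singly, each second signal lay at gained regions more often in NCI-H441 than in any other line. The difference from the mean of the others was 48.6 percentage points for NKX2-1 and 47.8 for H3K4me1. In each other line at least 35.1% of them held H3K4me1 while lacking H3K27ac.
At lost regions the order was the reverse and the gap smaller. Lost regions are wider than gained ones (median 1678 against 469 bp), and the part of width was not tested. NKX2-1 lay at 59.3% in NCI-H441 (56.7% to 61.9%) and at 71.1%, 74.9% and 80.5% in the others. H3K4me1 lay at 73.9% in NCI-H441 and at 84.6%, 90.2% and 88.8% in the others. The differences from the mean of the others were -16.2 and -14.0 percentage points. Of the 1372 lost regions, 743 (54.2%) held both NKX2-1 and H3K4me1 in NCI-H441 without H3K27ac, and 287 (20.9%) held neither. Each of the 4 contrasts was tested by an exact one-sided permutation of the 4 line labels, in the direction of the acetylation. Every exact permutation test gave p = 0.25, and an adjusted p of 0.25 over the 4 tests. That is the smallest value 4 lines allow, so no such test could pass 0.05.

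**Figure D4:**
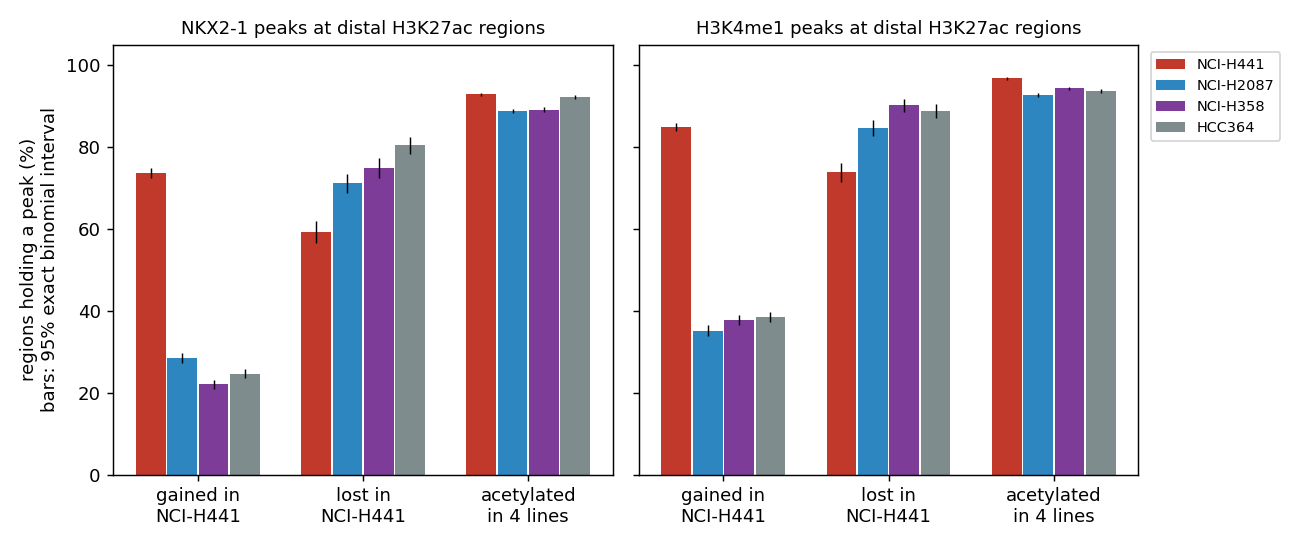
Bars give the percent of distal regions that hold an NKX2-1 peak (left) or an H3K4me1 peak (right) in each line, for regions gained or lost in NCI-H441 and regions acetylated in 4 lines, with exact 95% binomial intervals that cover counting error only. NCI-H441 is highest at gained regions (73.6% and 84.9%) and lowest at lost regions (59.3% and 73.9%).

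List length moves with these shares, since the NKX2-1 list of NCI-H441 is the longest, with 90578 peaks against 75657 to 87160. Cut to the 75657 strongest peaks of each line, NKX2-1 lay at 67.7% of the gained and 49.8% of the lost regions in NCI-H441. The same measure for the other lines, each at its own private regions with these lists, was 53.8% (NCI-H2087), 54.2% (NCI-H358) and 40.4% (HCC364). At the regions that each of them alone lacked it was 39.8%, 44.3% and 36.6%. NCI-H441 had the highest share of the 4 lines on either measure. Retained H3K4me1 at the regions a line alone lacked, with lists of equal length, was 71.4% in NCI-H441, 50.5% (NCI-H2087), 56.5% (NCI-H358) and 51.1% (HCC364). The H3K27ac lists that define the regions were not cut to equal length here, and the part of their length in these orders was not tested. These orders of 4 lines are descriptions.

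Among gained regions, those of higher H3K27ac fold held NKX2-1 more often. Up to percentile 25 of the NCI-H441 list 63.1% of 3060 regions held an NKX2-1 peak, up to 50 84.8% of 1726, up to 75 94.9% of 526, and above 75 98.5% of 66. H3K4me1 ran from 80.6% to 98.5%. Width rose with fold, from a median of 374 bp to 2071 bp. Among lost regions the course was the opposite. NCI-H441 NKX2-1 lay at 61.1% of 733 regions up to percentile 25 of the other lines, at 60.3% of 484, at 48.6% of 144 and, above percentile 75, at 36.4% of only 11 regions. Those regions also grew wider, from 1524 to 3284 bp. The part of width in either course was not tested.

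**Figure D5:**
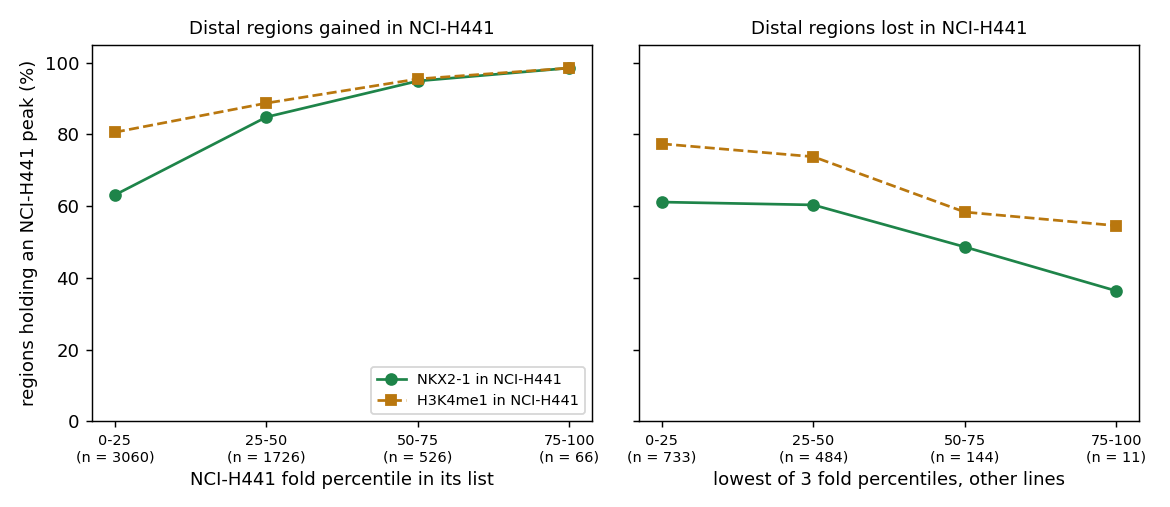
Points give the percent of distal regions that hold an NCI-H441 peak of NKX2-1 (circles) or H3K4me1 (squares), by H3K27ac fold percentile in steps of 25, with the number of regions under each point. At gained regions (left) NKX2-1 rises from 63.1% to 98.5%, and at lost regions (right) it falls from 61.1% to 36.4%, the last point resting on 11 regions.

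NCI-H2087 was the only line profiled with further antibodies, and they describe the regions in a line where the lost ones are acetylated. FOXA1 peaks of NCI-H2087 lay at 57.9% and FOXA2 peaks at 61.5% of the regions lost in NCI-H441, against 71.2% and 73.4% of those acetylated in 4 lines. The AP-1 subunit c-Jun lay at 39.5% against 60.9%, the insulator protein CTCF at 23.3% against 30.1%, and RNA polymerase II at 18.0% against 47.7%. H3K4me3, the promoter mark, lay at 20.6% against 28.8%. At regions gained in NCI-H441, which NCI-H2087 does not acetylate, FOXA1 lay at 19.3%, FOXA2 at 22.7%, c-Jun at 5.62% and RNA polymerase II at 2.42%. Regions acetylated in 4 lines are wider (median 2989 bp) than the lost ones (1678 bp) and the gained ones (469 bp). The part of width in these shares was not tested.

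At gene ends the second signals followed the same pattern. Of the 147 genes acetylated only in NCI-H441, 102 had an NKX2-1 peak at an end in NCI-H441 (69.4%), against 28.6%, 19.7% and 23.1% in NCI-H2087, NCI-H358 and HCC364. Over all genes the NKX2-1 shares were 47.2% in NCI-H441 and 46.9%, 43.7% and 51.5% in the others, and genes acetylated in 4 lines reached 77.4% in NCI-H441. Of the 274 acetylated in all lines but NCI-H441, 80 had one in NCI-H441 (29.2%), against 51.8%, 48.2% and 66.8%. H3K4me1 was at 76.9% of the first set in NCI-H441 against 40.8%, 41.5% and 27.2%, and at 46.4% of the second against 59.1%, 62.4% and 62.4%. All genes gave 54.1% in NCI-H441 and 43.2%, 45.6% and 39.2% in the others. Restricting to genes with no opposing peak within 5 kb gave similar NKX2-1 shares in NCI-H441, 56 of 80 (70.0%) and 51 of 190 (26.8%). In NCI-H2087, H3K4me3 marked an end of 63 of the 147 genes (42.9%) that it does not acetylate, with RNA polymerase II at 14 (9.52%). It marked 246 of the 274 (89.8%), with polymerase at 193 (70.4%). The same 2 shares were 65.9% and 54.1% over all genes, and 16.7% and 2.93% over genes acetylated in no line.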

How the data were processed

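Chromatin immunoprecipitates of 4 lung adenocarcinoma lines were sequenced as paired 40 bp reads, per the labels' protocols. The submitters' processing notes name MACS2 in versions 2.1.1 and 2.2.7.1, SAMtools 1.9, Bowtie2 2.2.9, bedtools, Trimmomatic 0.36 and the build hg38 (GRCh38). The role of each tool and the control used for peak calling are not given in the sources used here. Per library the authors deposited 1 narrowPeak list. In the deposited lists column 7 is a linear ratio, the summit's fold above its local background. The deposited lists also hold −log10 p and −log10 q values of the peak caller, and a score derived from −log10 q. The lowest −log10 q was just over 3 in the 4 H3K27ac lists.

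Peaks on chromosomes 1 to 22 and X were used, which left out 0.0873% to 0.469% of an H3K27ac list. The local background was solved from fold and p, on the Poisson relation the caller uses, and served only as relative depth. Genes came from RefSeq on GRCh38.p14, 19970 protein-coding genes, of which 15812 have a start site in the promoter table. Without a read count, presence means a peak in the list, and absence no peak. Counts were made with Python 3.11.15, pandas 2.3.3 and scipy 1.17.1 and tested on simulated peak lists. Exact permutations of the 4 line labels were one-sided, and p was adjusted by Benjamini-Hochberg. Intervals are Clopper-Pearson and cover counting error only.

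Named genes are the 15 of highest fold (or highest lowest percentile) and the 10 with the longest acetylated body in each group, the 10 genes with the most gained or lost distal regions, the 8 strongest regions of each kind, runs of neighbours and all members on the 32 gene lists. TMEM268, SPAG6, NR4A1 and AHNAK, the surfactant genes, CFTR, FOXA1 and the further genes drawn in the plot of folds by gene were added after their values were seen. The members and lists were chosen with earlier results of these data known. Genes with near-identical copies or overlapping neighbours (SFTPA1 and SFTPA2, HBA1, CIST1 and PDE4C) can share reads or peaks and are uncertain. Some results that the rule for named genes would give are not reported here. No genome sequence was used, so distal regions were not searched for motifs.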

Additional observations from a re-analysis of the deposited data

How the results depend on the processing

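No paired analysis was possible because each line and antibody is 1 library and no replicate numbers are shared. Leaving out 1 other line relaxes the rule and raised the counts by construction. Without NCI-H2087 the genes acetylated only in NCI-H441 numbered 293, those acetylated in all lines but NCI-H441 449, and the gained and lost distal regions 8324 and 3232. Without NCI-H358 the genes numbered 233 and 483 and the lost regions 3700, and without HCC364 the genes 264 and 421 and the lost regions 3283. With a −log10 q of at least 10 in every list, lost regions fell to 867. Asking this of the peaks that are present and no peak at all of the absent side gave 169 genes acetylated in all lines but NCI-H441, 2379 gained and 509 lost regions. Genes acetylated only in NCI-H441 numbered 80 when no other peak was allowed within 5 kb and 94 at annotated starts alone. Windows of 500 bp on summits gave 9123 gained regions. The cause of the last change was not tested. All other alternatives tried stayed within 1.5 times the count, and the 4 contrasts of NKX2-1 and H3K4me1 kept their direction under all 7 alternatives each. One of these, chosen after seeing the data, cut the second antibody's lists to equal length and gave 43.6 and 50.7 percentage points at gained and -23.5 and -14.2 at lost regions. Peak lists limit what can be said: a missing peak may be a weak one, height is not comparable between lists, and copy number is not measured.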

Other observations

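In the lists of other cell types, NCI-H441 acetylated ends of 6 of 11 alveolar type 2 genes (54.5%) and 7 of 10 alveolar type 1 genes (70.0%), against 56.2% of all genes. MUC1, a surface mucin gene, had a fold of 41.5 and LPCAT1, an enzyme of surfactant lipid synthesis, 29.3, and both were acetylated in all 4 lines. SLC34A2, the phosphate transporter of type 2 cells, was acetylated in NCI-H441 (14.0) and HCC364 (16.7) only. Of 14 airway secretory and mucin genes 6 were acetylated (42.9%), among them MUC4 with a fold of 40.9, while SCGB1A1 and MUC5AC had no peak in any line. Of 10 mesenchymal genes 5 were acetylated in NCI-H441, 4 of them in all 4 lines. Among the 10, VIM had no peak at an end in NCI-H441, whereas ZEB1 had a fold of 48.7. CLDN7, ESRP1 and GRHL2, genes of epithelial junctions, splicing and transcription, were acetylated in NCI-H441 (83.2, 20.5 and 57.5), NCI-H2087 and NCI-H358 but not in HCC364.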
